A study of Mus musculus with 20 samples.

Results

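The Shank, Dlgap and Homer genes encode the scaffold proteins of the postsynaptic density, the protein sheet under the membrane of excitatory synapses. They were followed here through RNA bound by the fragile X protein FMRP and through total RNA of mouse cortical neurons. Members were taken by gene name: every feature named Shank1, Shank2 or Shank3, Dlgap1, Dlgap2, Dlgap3 or Dlgap4, and Homer1, Homer2 or Homer3, where a feature is a group of array probes reported as 1 value. This gave 10 genes of 21300 gene name entries and 14 features of 24551. Shank2 has 3 features, Dlgap1 and Homer2 have 2 each, and the other genes have 1. Features of 1 gene share their transcripts and are not independent of each other.

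The samples were 4 groups of 5 arrays, namely CLIP RNA of Fmr1 knockout neurons, CLIP RNA of wild-type neurons, Input RNA of knockout neurons and Input RNA of wild-type neurons. All were primary neurons of C57Bl6 embryos taken at embryonic day 17, kept 8 days in culture and irradiated with ultraviolet light at 254 nm, which links proteins to the RNA they touch. Input is the total RNA of a culture, and CLIP (crosslinking and immunoprecipitation) is the RNA recovered with FMRP from the same culture. The 10 cultures, 5 of each genotype, were separate and had no technical repeats. The knockout neurons cannot supply FMRP, so their CLIP arrays show what the precipitation recovers without it. The comparison of knockout with wild-type CLIP asks which RNAs depended on FMRP for their recovery, and the Input arrays ask whether the RNA itself differed. Such cultures at this age are young neurons with few mature synapses. They can also hold glia, whose markers are given further on.

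In textbook accounts the postsynaptic scaffold is built in layers. PSD-95 and its relatives of the Dlg family lie under the glutamate receptors, Dlgap proteins (also called SAPAP or GKAP) bind their guanylate kinase domain, Shank proteins bind the Dlgap proteins through a PDZ domain, and Homer proteins join Shank to metabotropic glutamate receptors and to calcium stores. In humans, loss of SHANK3 underlies Phelan-McDermid syndrome, and mutations of Shank genes are found in autism. FMRP binds mRNAs and holds back their translation. Several Shank and Dlgap mRNAs have been listed among its targets in studies of mouse brain.

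Values are log2 signals after robust multi-array averaging. Array medians lay between 5.30 and 5.44, and 13 of the 14 features exceeded 4, a level near the low end of the scale, in all 20 arrays. The exception was Homer2 feature 10565152, which did so in 10 arrays. Because RNA was amplified and the arrays have similar medians, a CLIP value gives a share of the precipitate and not an amount. Values of different features depend on their probes and are not set against each other.

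Fmr1, the deleted gene, matched the labels. In CLIP its log2 level was 3.92, 3.81, 3.93, 4.03 and 3.93 in the 5 knockout arrays, against 6.59, 6.20, 6.33, 6.80 and 6.56 in the 5 wild-type arrays. In Input it was 3.98, 4.03, 4.06, 4.34 and 4.28 in knockout, against 5.49, 5.70, 5.64, 5.59 and 6.03 in wild type. The genotypes did not overlap in either fraction, with a knockout minus wild-type difference of −2.57 in CLIP and −1.55 in Input (exact permutation p = 0.00794 each, n = 5 against 5, two-sided, the smallest p that splits of 5 against 5 allow).

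In CLIP, most scaffold features stood at lower mean levels in knockout than in wild-type neurons, but none passed the test over all features. Of the 14 features, 12 had a negative knockout minus wild-type difference, with a median of −0.22 on the log2 scale, while over all features 55.9% were negative and the median was −0.02. With limma at an adjusted p under 0.05, 0 of 14 were called, and over all features 0.11% were. At an unadjusted limma p under 0.05, 8 of 14 were lower and 0 higher, where 4.75% of all features were lower and 2.41% higher. That count was 5 without knockout CLIP replicate 3, with an intensity trend in the fit, or in a fit to all 20 arrays. The 5 knockout arrays lay wholly below the 5 wild-type arrays for 2 features, those of Shank3 and Dlgap3, and this held for 1.35% of all features.

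Shank3, the scaffold gene on chromosome 15, had the largest of these differences. Its CLIP level was 6.38, 6.57, 6.67, 6.49 and 6.62 in the knockout arrays, against 7.44, 6.91, 7.20, 6.89 and 7.15 in the wild-type arrays. The highest knockout value was below the lowest wild-type value. The difference was −0.57 (SE 0.11, 95% interval −0.82 to −0.33), a level 1.49-fold lower in knockout, with exact permutation p = 0.00794 (n = 5 against 5) and a limma adjusted p of 0.0997. It ranked 59 among the 24551 features by p. The adjusted p lay between 0.0605 and 0.287 when 1 array was left out, and between 0.0859 and 0.255 in 7 other alternatives, so the call was missed in each of these.

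Shank1, on chromosome 7, encodes the scaffold expressed mainly in brain. Its CLIP level was 7.88, 7.42, 7.34, 7.32 and 7.95 in knockout, against 8.55, 7.66, 8.13, 7.92 and 8.28 in wild type. The highest knockout arrays reached into the wild-type range. The difference was −0.52 (SE 0.18), with exact permutation p = 0.0476 (n = 5 against 5) and a limma adjusted p of 0.467.

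Shank2, also on chromosome 7, was covered by 3 features that differed in how they behaved. Feature 10559343, which the deposited table assigns to a RefSeq variant, read 6.71, 6.98, 6.74, 7.37 and 7.10 in knockout CLIP, against 7.47, 6.91, 7.57, 7.58 and 7.55 in wild-type CLIP. A single low wild-type array, replicate 2, lay inside the knockout range. The difference was −0.44 (SE 0.16, exact permutation p = 0.0476, n = 5 against 5, limma adjusted p = 0.509). The other Shank2 features, assigned to Ensembl transcripts, gave −0.17 (SE 0.17) and −0.22 (SE 0.19) for 10559333 and 10559341, with overlapping groups. Averaged over the 3 features, Shank2 differed by −0.27 in CLIP (SE 0.13, limma adjusted p = 0.738 in a fit with 1 value per gene).

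Among the Dlgap genes, Dlgap3 stood apart by its groups. Dlgap3, on chromosome 4, is known from mice whose loss of it leads to excessive grooming. Its CLIP level was 7.06, 7.58, 7.61, 7.49 and 7.10 in knockout, against 7.71, 7.81, 8.05, 7.83 and 7.96 in wild type. The groups did not overlap, although knockout replicates 1 and 5 lay well below the other knockout arrays. The difference was −0.51 (SE 0.13, 95% interval −0.78 to −0.23), or 1.42-fold lower in knockout, with exact permutation p = 0.00794 (n = 5 against 5) and a limma adjusted p of 0.200. Leaving out 1 array gave limma adjusted p-values of 0.171 to 0.489.

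The other Dlgap genes differed less. Dlgap1, on chromosome 17, had features on both sides of 0. Feature 10446596, assigned to a RefSeq variant, read 7.91, 7.78, 7.72, 7.89 and 8.00 in knockout CLIP, against 8.29, 7.87, 8.19, 8.12 and 8.37 in wild-type CLIP, where replicate 2 lay within the knockout range. Its difference was −0.31 (SE 0.10, exact permutation p = 0.0317, n = 5 against 5, limma adjusted p = 0.448). Feature 10446592, assigned to an Ensembl transcript, gave +0.16 (SE 0.17), and its wild-type arrays spanned 8.15 to 9.15. The mean of both Dlgap1 features differed by −0.07 (SE 0.11). Dlgap4, on chromosome 2, ranged from 8.07 to 8.46 in knockout CLIP and from 8.42 to 8.66 in wild-type CLIP, an overlap of 1 knockout array, with a difference of −0.23 (SE 0.09, exact permutation p = 0.0317, n = 5 against 5, limma adjusted p = 0.590). Dlgap2, on chromosome 8, ranged from 7.17 to 7.64 in knockout CLIP and from 7.17 to 7.80 in wild-type CLIP, with a difference of −0.10 (SE 0.13).

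The 4 Homer features had CLIP differences between −0.24 and 0.16, and their groups overlapped in each case. Homer1, on chromosome 13, encodes the linker that also exists as a short, activity-induced form. The deposited table assigns its 1 feature to the long transcript variant, so that the forms were not measured apart. Its CLIP level was 8.16, 7.67, 7.70, 7.94 and 7.87 in knockout, against 8.30, 7.79, 8.02, 7.94 and 8.09 in wild type, with a difference of −0.16 (SE 0.12). Homer2, on chromosome 7, gave −0.24 (SE 0.10, exact permutation p = 0.0476, n = 5 against 5, limma adjusted p = 0.616) on feature 10565156 and +0.16 (SE 0.14) on the low feature 10565152. Homer3, on chromosome 8, ranged from 5.37 to 5.68 in knockout CLIP and from 5.65 to 5.84 in wild-type CLIP, with a difference of −0.19 (SE 0.08, exact permutation p = 0.0238, n = 5 against 5, limma adjusted p = 0.640).

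**Figure D1:**
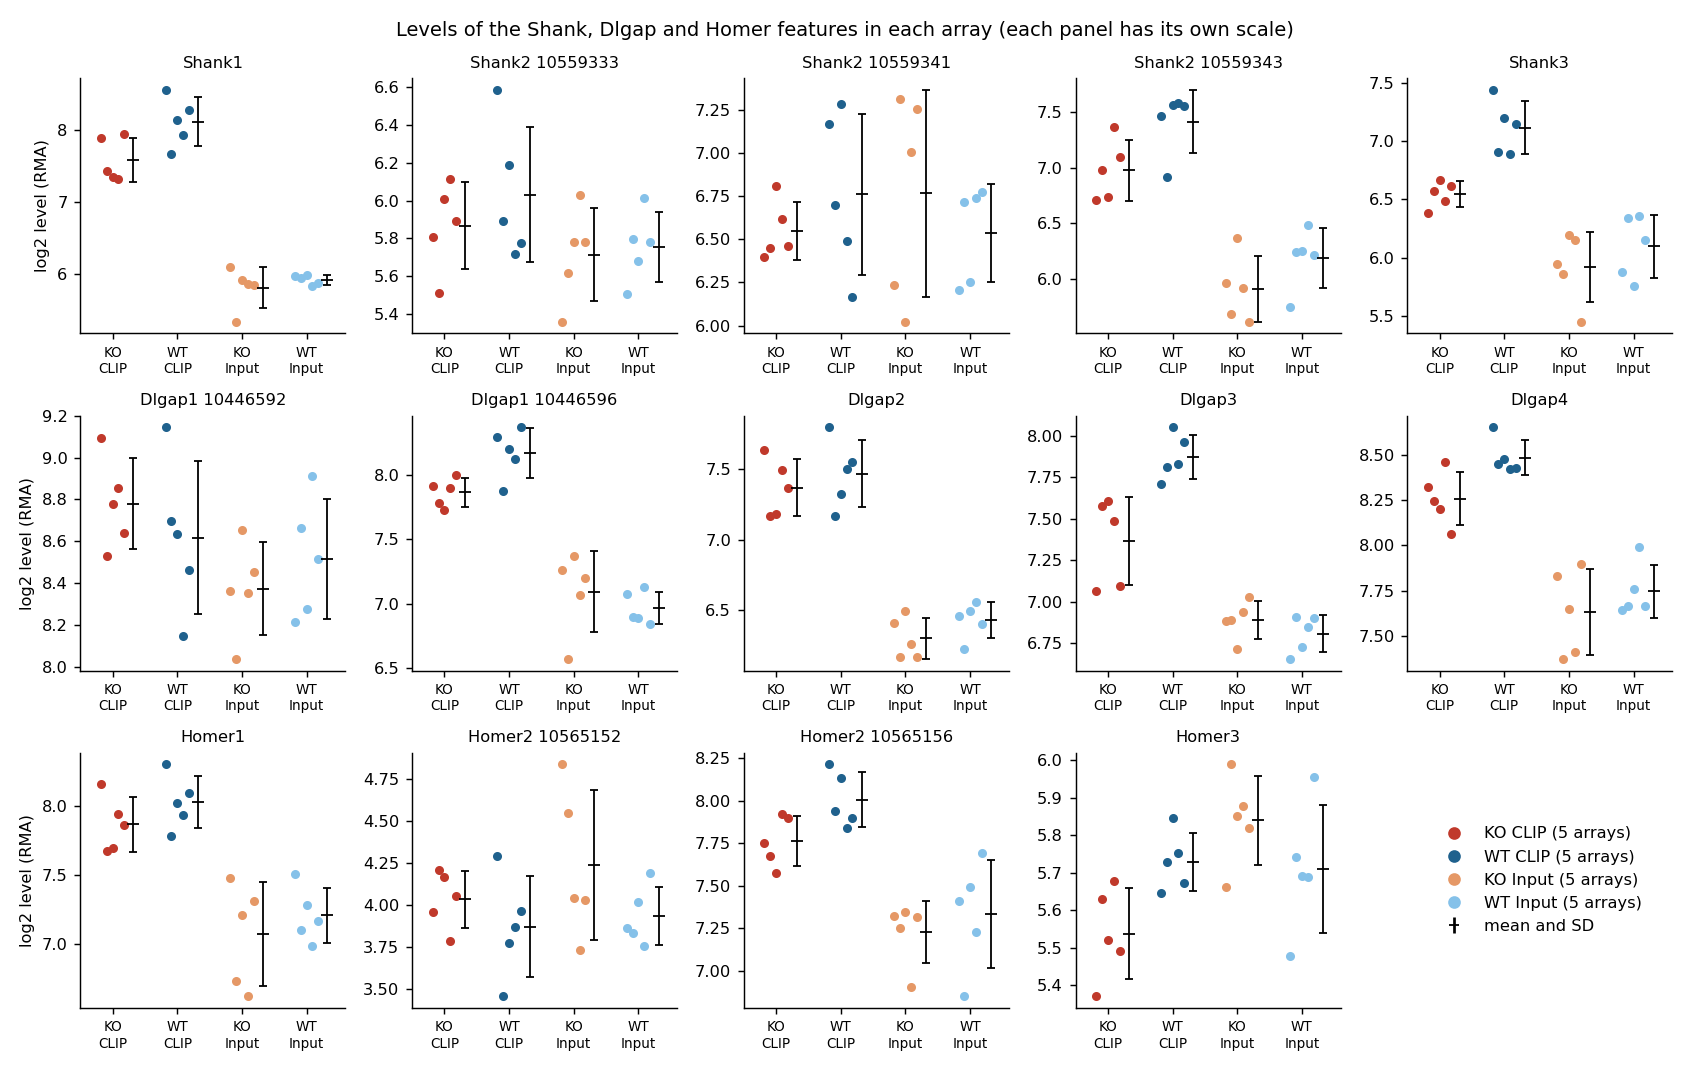
Log2 level of each scaffold feature in each array, with the mean and SD of the 5 arrays of a group beside the points. The Shank3 and Dlgap3 panels show knockout CLIP wholly below wild-type CLIP, with both CLIP groups above both Input groups.

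Within-array differences between features of 1 family were compared between genotypes in CLIP for 26 pairs, a comparison added after the values were seen. The exact permutation p was under 0.05 for 3 pairs and for 0 pairs after Benjamini-Hochberg adjustment over the 26, where the lowest value was 0.284 (n = 5 against 5, exact permutation). This number of arrays could hardly pass that adjustment, since 1 pair at the smallest exact permutation p of 0.00794 has an adjusted value of 0.206 and 5 such pairs would be needed. The order of the members by their CLIP difference is therefore a description.

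In total RNA the scaffold genes showed no detectable genotype difference. In Input, 0 of 14 features were called by limma, 0 passed an unadjusted p of 0.05 in either direction, and no member had groups that did not overlap. Over all features 0.00407% were called, which is 1 feature. At an unadjusted p 2.24% were lower and 1.62% higher, and the groups did not overlap for 0.424% in the lower and 0.273% in the higher direction. Of the members, 9 were negative, where 47.4% of all features were, and their median was −0.11 against 0.01 over all features. That median was −0.03 without knockout Input replicate 2, −0.04 without knockout Input replicate 4 and −0.05 without wild-type Input replicate 4. In bulk RNA, fewer cells of a type and less RNA per cell cannot be told apart.

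Shank3 in Input read 5.94, 5.86, 6.20, 6.15 and 5.45 in knockout, against 5.88, 6.34, 5.75, 6.36 and 6.15 in wild type, with a difference of −0.18 (SE 0.17, 95% interval −0.55 to 0.19). Dlgap3 in Input read 6.88, 6.89, 6.71, 6.94 and 7.03 in knockout, against 6.65, 6.91, 6.72, 6.84 and 6.90 in wild type, with a difference of 0.08 (SE 0.11, 95% interval −0.15 to 0.32). Both pairs of groups overlapped widely. The Input differences of the other members lay between −0.28 for Shank2 feature 10559343 and 0.30 for Homer2 feature 10565152, and every limma adjusted p was 0.9998. The Input interval of Dlgap3 did not reach its CLIP difference of −0.51, while the lower end of that of Shank3 came close to its CLIP difference of −0.57.

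**Figure D2:**
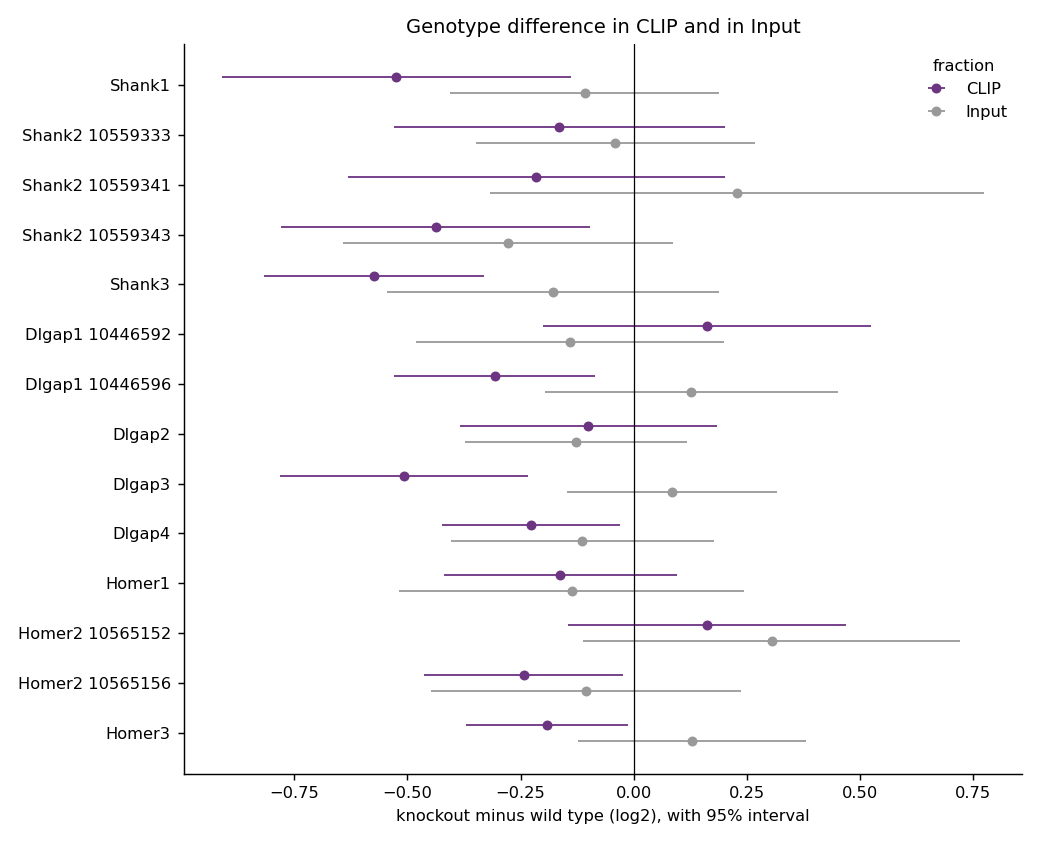
Knockout minus wild-type difference of each scaffold feature on the log2 scale, in CLIP and in Input, with 95% intervals from limma (n = 5 against 5). The upper ends of the Shank3 and Dlgap3 CLIP intervals, −0.33 and −0.23, lie furthest below 0, and every Input interval includes 0.

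**Figure D3:**
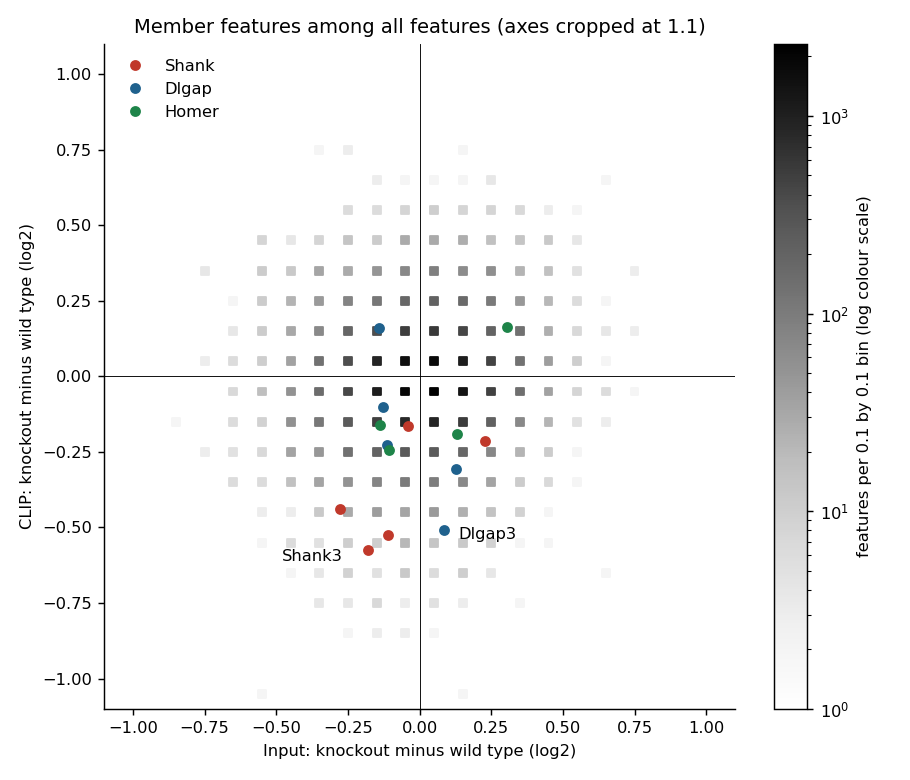
Knockout minus wild-type difference in CLIP (vertical axis, log2) against that in Input (horizontal axis, log2) for the 14 scaffold features (colours mark the families), with axes cropped, over the number of all features in each cell of a grid. The members lie mainly below the horizontal line, 12 of 14, and on both sides of the vertical line.

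Most scaffold mRNAs were richer in CLIP than in Input RNA, and this was so in knockout as well as in wild-type neurons. In knockout, limma called 9 features higher and 1 lower, with 4 not called, where over all features 16.2% were higher and 19.7% lower. In wild type, 9 were higher, 0 lower and 5 not called, where 17% of all features were higher and 17.9% lower. At an unadjusted limma p under 0.05, 0 members were lower in wild type, where 24.7% of all features were. The same 9 features were higher in both genotypes, and they belong to 9 genes, all members but Homer3. In a fit with 1 mean per gene, Homer2 was not called in either genotype (0.17, limma adjusted p = 0.327 in knockout, and 0.31, limma adjusted p = 0.0816 in wild type), and Shank2 was not called in knockout (0.33, limma adjusted p = 0.0632). They were 3 of 5 Shank features, 4 of 5 Dlgap features and 2 of 4 Homer features. The median CLIP minus Input difference of the members was 0.58 in knockout and 0.78 in wild type, while over all features it was −0.13 in knockout and −0.09 in wild type. Quantile normalization moved the median of all features by 0.11 in knockout, and relative to all features the members' median in knockout was then 0.42, against 0.71 on the deposited values. In wild type the median of all features moved by 0.08, and the members' relative median was 0.61, against 0.88 on the deposited values.

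Shank1 had the largest mean difference between CLIP and Input among the 14 features in both genotypes. CLIP exceeded Input by 1.77, 2.08, 1.43, 1.46 and 2.08 in the 5 knockout cultures and by 2.57, 1.71, 2.14, 2.08 and 2.40 in the 5 wild-type cultures. The mean was 1.76 in knockout, or 3.40-fold (limma adjusted p = 1.27e-07), and 2.18 in wild type, or 4.53-fold (limma adjusted p = 4.55e-09). It ranked 75 by p in knockout and 41 in wild type. Shank2 feature 10559343 averaged 1.07 (SE 0.17) in knockout and 1.23 (SE 0.17) in wild type, whereas its other features averaged −0.22 to 0.28 and were not called. Averaged over its features, Shank2 was higher in wild type (0.58, SE 0.14, limma adjusted p = 0.00229) and missed the threshold in knockout (0.33, SE 0.14, limma adjusted p = 0.0632).

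Shank3 CLIP exceeded Input by 0.44, 0.71, 0.47, 0.33 and 1.17 in the knockout cultures and by 1.56, 0.57, 1.45, 0.53 and 1.00 in the wild-type cultures. The means were 0.63 in knockout (limma adjusted p = 0.00237) and 1.02 in wild type (limma adjusted p = 1.26e-05), and the cultures of the genotypes overlapped. All CLIP arrays of both genotypes lay above all Input arrays for Shank3 and for 7 other members, 8 of the 9 called features. Homer2 feature 10565156 was the exception, with the lowest knockout CLIP array at 7.58 and the highest wild-type Input array at 7.69. The margin was thin for Shank3, with its lowest CLIP array at 6.38 and its highest Input array at 6.36. It was also thin for Dlgap3, at 7.06 and 7.03. Such separation of CLIP from Input was not counted over all features, so the count of members is a description.

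Within the Dlgap family the enrichment averaged 1.07 in knockout and 1.04 in wild type for Dlgap2, and 0.63 in knockout and 0.74 in wild type for Dlgap4, each higher at a limma adjusted p of 0.000199 or less. Dlgap1 feature 10446596 averaged 0.77 in knockout and 1.20 in wild type. Its feature 10446592 averaged 0.41 in knockout, missing the threshold (limma adjusted p = 0.0619), and 0.10 in wild type. It passed without wild-type CLIP replicate 1, without wild-type CLIP replicate 4 or without knockout Input replicate 3, with limma adjusted p-values of 0.0395, 0.0473 and 0.0381. Dlgap3 CLIP exceeded Input by 0.18, 0.69, 0.90, 0.55 and 0.07 in the knockout cultures and by 1.06, 0.90, 1.33, 0.99 and 1.06 in the wild-type cultures, where every wild-type culture lay above every knockout culture. Its mean was 0.47 in knockout (limma adjusted p = 0.00298) and 1.07 in wild type (limma adjusted p = 3.76e-07), and the knockout call was lost under quantile normalization (0.22, limma adjusted p = 0.258).

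Homer1 averaged 0.80 in knockout and 0.82 in wild type, higher in both (limma adjusted p = 0.000419 in knockout and 0.000242 in wild type). Homer2 feature 10565156 averaged 0.54 in knockout and 0.67 in wild type, and its knockout call was lost under quantile normalization (0.30, limma adjusted p = 0.111). The low Homer2 feature 10565152 was not called in either genotype. Homer3 was the member that fell in CLIP relative to Input in knockout, with −0.29, −0.36, −0.33, −0.20 and −0.33 in the knockout cultures, against 0.17, −0.01, 0.15, 0.06 and −0.28 in the wild-type cultures. Its mean was −0.30 in knockout (SE 0.10, limma adjusted p = 0.0192) and 0.02 in wild type (SE 0.10, limma adjusted p = 0.897). All 5 knockout cultures were below 0, which held for 25.4% of all features. The knockout call of Homer3 was missed without knockout CLIP replicate 1 (limma adjusted p = 0.0582) or without knockout Input replicate 2 (limma adjusted p = 0.0523).

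**Figure D4:**
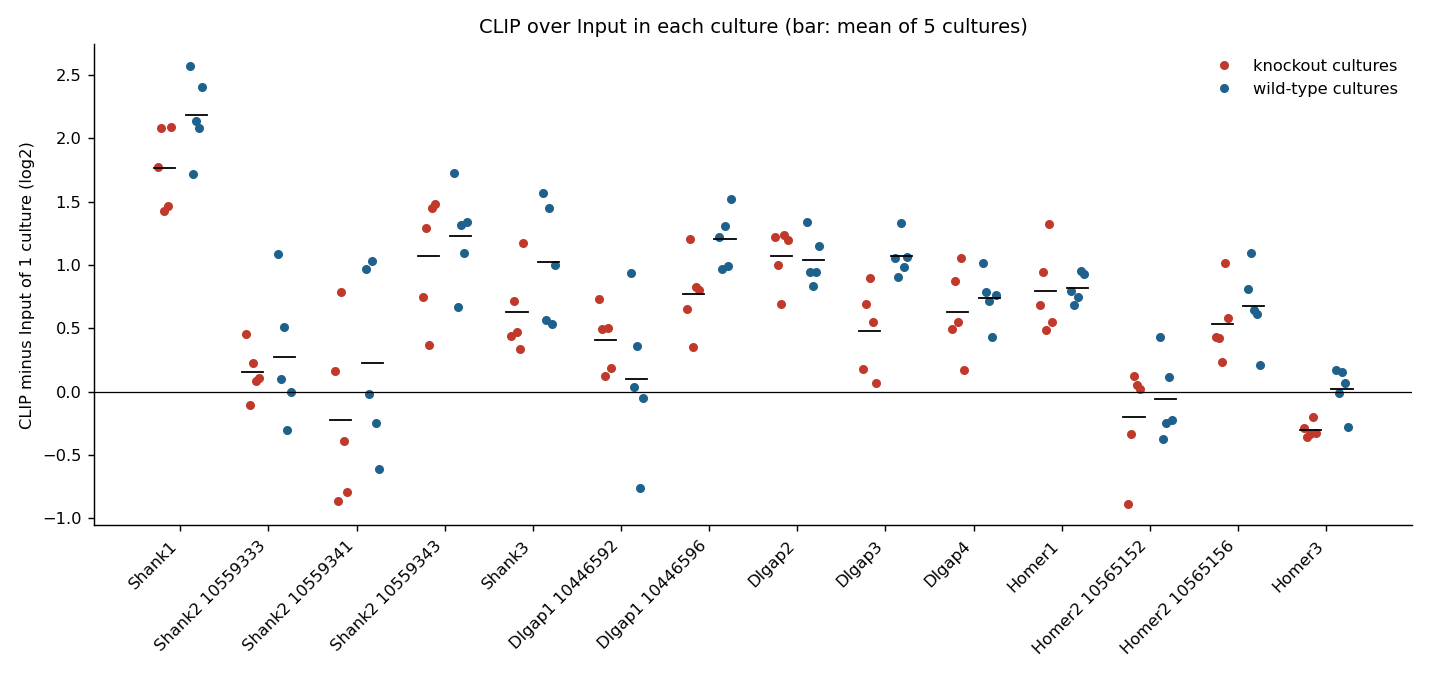
CLIP minus Input on the log2 scale for each scaffold feature in each culture, knockout left of wild type, with a bar at the mean of 5 cultures. Shank1 lies highest in both genotypes, the Dlgap3 genotypes do not overlap, and Homer3 lies below 0 in all 5 knockout cultures; the knockout calls of Dlgap3 and Homer2 feature 10565156 were lost under quantile normalization.

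The genotype difference in enrichment itself was tested as knockout CLIP minus Input less wild-type CLIP minus Input. It uses the same CLIP arrays as the CLIP comparison. With limma, 0 of 14 members were called, against 0.0204% of all features. Of the members, 12 were negative, where 55.3% of all features were, with a median of −0.15 against −0.03. The members' median was −0.27 without wild-type CLIP replicate 2 and −0.24 without knockout Input replicate 4. At an unadjusted limma p under 0.05, 3 of 14 were lower and 0 higher, where 2.74% of all features were lower and 1.72% higher.

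Dlgap3 had the largest value, −0.59 (SE 0.16, 95% interval −0.93 to −0.25), with exact permutation p = 0.00794 over the cultures (n = 5 against 5) and a limma adjusted p of 0.674. It was the 1 member whose culture enrichments did not overlap, which held for 0.766% of all features in this direction, and it ranked 53 by p. Dlgap1 feature 10446596 gave −0.43 (SE 0.18, exact permutation p = 0.0397, n = 5 against 5, limma adjusted p = 0.9999) and Homer3 gave −0.32 (SE 0.14, exact permutation p = 0.0159, n = 5 against 5, limma adjusted p = 0.9999). For Shank3 the value was −0.40 (SE 0.21, exact permutation p = 0.167, n = 5 against 5) and for Shank1 it was −0.42 (SE 0.23, exact permutation p = 0.0952, n = 5 against 5), both with intervals that include 0. Dlgap2 and Homer1 gave 0.03 (SE 0.17) and −0.03 (SE 0.22).

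The authors' deposited table holds its own comparison of the culture ratios, with a fold of wild type over knockout, the opposite direction to the differences above. Of the 14 features, 11 have a fold above 1 and 3 below 1 in the authors' deposited table, with Dlgap1 feature 10446592 at 0.861 the lowest, beside Dlgap2 at 0.979 and Homer1 at 0.997. For Homer1 the interaction above, read as wild type over knockout, is 1.02-fold, on the other side of 1. How the authors averaged the cultures was not tested. There Dlgap3 has a fold of 1.48 and a permutation p (from SAM) of 0.00731, unadjusted, in the authors' deposited table. The 4 features with the next lowest permutation p in the authors' deposited table follow. Homer3 has 1.26 and permutation p = 0.0253, Dlgap1 feature 10446596 has 1.34 and p = 0.0370, Shank1 has 1.34 and p = 0.0691, and Shank3 has 1.34 and p = 0.138, all permutation p-values and unadjusted.

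The order of the 4 groups, from their means, was alike for most members. For 8 features, those of Shank1, Shank3, Dlgap2, Dlgap4, Homer1, Homer2 feature 10565156 and Shank2 features 10559333 and 10559343, it ran from wild-type CLIP through knockout CLIP and wild-type Input to knockout Input. Knockout and wild-type Input overlapped in each of these, so that this last step is no difference beyond the spread. For Shank3 and Dlgap3 both upper steps were free of overlap. Dlgap3 differed from that order only in its Input groups, which overlapped. For the other features of the order the CLIP groups overlapped. Neither the order nor the steps free of overlap were counted over all features. Both draw on the same arrays as the differences above and are a description, not a separate result.

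Partners of the scaffold were counted from lists of textbook binding partners. Over all features, CLIP over Input was called higher for 16.2% and lower for 19.7% in knockout. In wild type these shares were 17% and 17.9%. Between the genotypes in CLIP, 55.9% of all features were negative. At an unadjusted limma p under 0.05, 4.75% were lower and 2.41% higher. Of the Dlg family with Magi2, the PDZ scaffolds that hold Dlgap proteins at the receptors, 5 of 5 genes were measured by 6 features. All 6 were higher in CLIP than in Input in both genotypes, although after quantile normalization 5 were called in knockout and 3 in wild type. Between the genotypes in CLIP 0 passed limma, with 4 negative, 1 lower at an unadjusted p and a median of −0.07. After quantile normalization or median centring 3 were negative. Dlg2, which encodes PSD-93, had 9.60 ± 0.14 in knockout CLIP and 9.95 ± 0.23 in wild-type CLIP (SD, n = 5 each). Its difference of −0.34 had a limma adjusted p of 0.458. Magi2 differed by −0.16 and Dlg4, which encodes PSD-95, by −0.13.

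Of the ligands and effectors of Homer (metabotropic glutamate receptors, calcium release channels and others), 6 of 6 genes were measured by 8 features. In CLIP minus Input, 6 were higher in knockout and 7 in wild type, or 4 in knockout and 6 in wild type after quantile normalization. Between the genotypes in CLIP, 7 were negative, where 55.9% of all features were, and 0 passed limma. At an unadjusted p 1 was lower, where 4.75% of all features were. After quantile normalization or median centring 6 were negative. Agap2, which encodes the GTPase PIKE, differed by −0.38 (limma adjusted p = 0.674), and Ryr2, a calcium release channel, by −0.20.

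Of the ligands of Shank and actin regulators of the spine, 8 of 10 genes were measured by 8 features, 4 of them higher in CLIP than in Input in each genotype. After quantile normalization 3 were called higher in each genotype, and after median centring 3 in wild type and 4 in knockout. Between the genotypes in CLIP, 3 were negative, where 55.9% of all features were, and 0 passed limma. At an unadjusted p 1 was lower, where 4.75% of all features were. That 1 was Arhgef7, which encodes the Rac exchange factor beta-PIX, a partner of the Shank PDZ domain. Its CLIP level was 8.11 ± 0.07 in knockout and 8.55 ± 0.10 in wild type (SD, n = 5 each), a difference of −0.44 (SE 0.08) with exact permutation p = 0.00794 and a limma adjusted p of 0.0704, beside +0.04 in Input. Abi1 and Dbnl, both linked to the actin cytoskeleton, differed by +0.17 and +0.18.

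Of 21 other genes of the postsynaptic density, measured by 29 features, 23 features were higher and 1 lower in CLIP than in Input in knockout, and 21 were higher and 1 lower in wild type. After quantile normalization 21 were higher in each genotype, with 1 lower in knockout and 2 lower in wild type. Between the genotypes in CLIP, 16 of 29 were negative, where 55.9% of all features were, 0 passed limma, and the median was −0.05. At an unadjusted p 9 were lower and 2 higher, where 4.75% of all features were lower and 2.41% higher. Sipa1l1, the spine protein SPAR, differed by −0.36 (SE 0.09, exact permutation p = 0.00794, n = 5 against 5, limma adjusted p = 0.232). Grin2a, an NMDA receptor subunit, differed by −0.49.

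The features most like Shank3 over all 20 arrays, by Pearson's r, were those of Ttbk1 (0.93), Dgkz feature 10485081 (0.93), 4930534B04Rik (0.93), Kif1c (0.92) and Cux2 (0.92). Among members, Shank2 feature 10559343 had r = 0.90 and ranked 21, Shank1 had 0.87, Dlgap3 0.85, Dlgap1 feature 10446596 0.84 and Dlgap2 0.83. Homer3 and Homer2 feature 10565152 had −0.18 and −0.26. These r values are descriptions over 20 arrays in which the step between CLIP and Input is shared by many features.

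Markers of neurons and of other cells the cultures could hold were read beside the CLIP result, and none of them was called between the genotypes in either fraction. Of 6 neuron markers 4 were measured, and 3 of these 4 had higher means in knockout CLIP, where 44.1% of all features did. In Input 3 of 4 were higher in knockout as well (median 0.13), where 52.6% of all features were. Tubb3, a neuronal tubulin, had 10.09 ± 0.12 in knockout CLIP and 9.58 ± 0.32 in wild-type CLIP (SD, n = 5 each, exact permutation p = 0.00794, limma adjusted p = 0.270). The neuron marker Syt1 (+0.24) and the astrocyte marker Slc1a2 (+0.26) had the same exact permutation p. At an unadjusted limma p under 0.05, 2 of 4 neuron and 2 of 6 astrocyte markers were higher, where 2.41% of all features were. Tubb3 was the 1 neuron marker with a negative CLIP minus Input difference, −0.54 in knockout and −0.81 in wild type. The mean of the neuron list per array ran from 9.33 to 9.63 in knockout CLIP and from 8.95 to 9.62 in wild-type CLIP. Of 6 astrocyte markers, 5 had higher means in knockout CLIP, with list means of 6.26 to 6.65 in knockout and 5.98 to 6.40 in wild type. In Input the astrocyte list means were 6.60 to 7.09 in knockout and 6.59 to 6.94 in wild type. Astrocyte markers were mostly lower in CLIP than in Input, 2 of 6 called in knockout and 4 of 6 in wild type, and 4 of 6 in each after quantile normalization. Over all features, on the deposited values, 19.7% were called lower in knockout and 17.9% in wild type.

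The excitatory and inhibitory neuron lists had 2 of 6 and 3 of 6 negative differences in CLIP, with medians of 0.15 and 0.0043. Over all features 55.9% of the CLIP differences were negative. The oligodendrocyte lineage list had 5 of 6 negative (median −0.12), the microglia list 6 of 6 (median −0.03, and 4 of 6 after quantile normalization or median centring) and the endothelial and meningeal list 2 of 6 (median 0.03). Microglia list means ran from 4.36 to 4.55 in knockout CLIP and from 4.36 to 4.65 in wild-type CLIP, near the low end of the scale. Endothelial and meningeal list means ran from 4.94 to 5.35 in knockout CLIP and from 4.80 to 5.13 in wild-type CLIP, and oligodendrocyte lineage list means from 5.92 to 6.16 in knockout CLIP and from 6.11 to 6.25 in wild-type CLIP. No marker is at 0 on this scale. The part of these cell types in the scaffold values was not tested.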

How the data were processed

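Total RNA (Input) and FMRP-CLIP RNA of 10 cultures were hybridised to 20 arrays. The authors deposited log2 values after RMA, made with Affymetrix Expression Console 1.1 per the submitters' processing notes. Per the labels' protocols, NuGEN kits amplified the RNA and added biotin. The array's name in the labels differs from the form of the feature identifiers, so values were used by feature. A genome build was not given in the sources used, and chromosomes are those of the deposited table. The table also holds the authors' ratio (log2 CLIP minus Input), fold and p-value columns, deposited by them. Their ratio columns subtract Input from CLIP of the same number (largest difference 0), which with the 10 cultures of the design pairs these arrays. No pair of arrays was identical (0 pairs), and 7 lines without a feature were left out.

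The tests ran in R 4.3.3 with limma 3.58.1 (two-sided, lmFit then eBayes, Benjamini-Hochberg over 24551 features, adjusted p under 0.05). Genotypes were compared within a fraction on 10 arrays, and CLIP minus Input and the interaction on all 20. The fits for CLIP minus Input and the interaction had no term for the culture, so their SE and limma p ignore the pairing. The exact permutation p of the interaction used the CLIP minus Input difference of each culture. Single members were compared by exact permutation over all splits of the arrays of a fraction. The genotype and interaction fits were tested on simulated data with independent noise for each array. That check required calls only at differences larger than any genotype difference of the members. Permutations used numpy 2.4.6, tables pandas 2.3.3 and numpy, and figures matplotlib 3.10.9, all under Python 3.11.15. Members and lists were chosen with earlier results of these data known. Every feature of the members and Fmr1 is named, the 3 genes of lowest limma p in CLIP of each partner list, and the 5 features of other genes with the highest Pearson correlation with Shank3. Of each marker list the counts are given, and Tubb3, Syt1 and Slc1a2 are named beside them. A few genes that the rule would name are not reported here.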

Additional observations from a re-analysis of the deposited data

Results flagged for a closer look

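Values of single arrays that stood apart from the other 4 of their group were found in 3 of 60 groups of 5 checked for the members and Fmr1. The limit used is Dixon's at a level of 95%, which chance alone passes in about 1 of 20 groups. Shank2 feature 10559343 had its lowest wild-type CLIP value, 6.91, in replicate 2. Dlgap4 had its highest wild-type CLIP value, 8.66, in replicate 1. Homer2 feature 10565156 had its lowest knockout Input value, 6.91, in replicate 4.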

How the results depend on the processing

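Each result was recomputed after quantile normalization, median centring, a filter on features above 4 in at least 2 arrays, 1 mean per gene, an intensity trend, a replicate block, a fit to all 20 arrays for the genotype comparisons, and without each array in turn. Of 1533 values for single features (the mean per gene only where a gene has 1 feature), 1497 kept their direction and side of the threshold, 29 changed sign (none of them a call), 3 gained a call and 4 lost one. Members called between genotypes numbered 0 in CLIP, in Input and in the interaction under each of these. In CLIP minus Input, 9 features were called in wild type and 8 to 11 in knockout. With 1 mean per gene, 7 of 10 genes were higher and 1 lower in knockout, and 8 were higher in wild type. Homer2 was then missed in both genotypes (limma adjusted p = 0.327 in knockout and 0.0816 in wild type) and Shank2 in knockout (limma adjusted p = 0.0632). Over all features, calls in the CLIP comparison numbered 27 on the deposited values but 14 after quantile normalization, 8 after median centring, 12 with an intensity trend, 18 in the fit to all 20 arrays, 3 with the replicate block and 4 to 61 without 1 array. In Input they numbered 1, and 3 in the fit to all 20 arrays. In the interaction they numbered 5, but 9 after quantile normalization, 3 after median centring, 2 with the block and 3 to 8 without 1 array. The cause of these shifts was not tested. The scaling of the partner and marker lists was varied after seeing the data.

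Sign changes were in small values. For CLIP minus Input in wild type, Homer2 feature 10565152 was 0.12 and Homer3 −0.084 after quantile normalization, and Homer3 −0.018 after median centring. Without 1 array these ran from −0.17 to 0.043 and from −0.040 to 0.080, and Dlgap1 feature 10446592 from −0.029 to 0.22. In Input, Shank1 ran from −0.18 to 0.0096 and Shank2 feature 10559333 from −0.12 to 0.048. In the interaction, Shank2 feature 10559333 ran from −0.21 to 0.015, Dlgap2 from −0.048 to 0.11, Homer1 from −0.14 to 0.077 (0.028 after median centring) and Homer2 feature 10565152 from −0.27 to 0.0076. Fmr1 ran from −2.65 to −2.50 in CLIP and from −1.60 to −1.47 in Input.

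The culture as a replicate block changed no member call: 9 in wild type and 10 in knockout. Across genotypes the replicate number is only a number. With it as a block, 0 members were called in CLIP and in Input. Same-numbered knockout and wild-type arrays deviated together with r of −0.14 to 0.44 in CLIP and −0.27 to 0.55 in Input, and CLIP and Input of a culture with −0.13 to 0.45. With 5 cultures a group, no detection calls and probe signals compressed at the low end, small differences were not detectable.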
